A study of Rattus norvegicus with 6 samples.

Results

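The genes described here are 56 genes of DNA replication, S phase and DNA repair, chosen by name for their known roles, with earlier results of these data known, and followed in rat heart muscle cells after knockdown of uc.323. Of the 56, 52 had a matched probe on the array and 51 passed the filter on dim probes, out of 11580 named genes and 19920 features tested in all. Mcm5, Rpa1, Msh6 and Blm were matched to no probe and are not analysed here. Brca1 had a probe that exceeded background clearly on 2 si-uc.323 arrays and on 0 si-scramble arrays, and it was not tested.

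A cell copies its genome in S phase in a fixed order of steps. In G1 the origin recognition complex, Cdc6 and Cdt1 load the ring-shaped helicase of Mcm2 to Mcm7 onto DNA (licensing). At the onset of S phase the kinase of Cdc7 and Dbf4, with Mcm10, Cdc45 and the GINS complex, turns the ring into an active helicase, and polymerases, the clamp Pcna and its loader follow it. The genes of this machinery are classical targets of the E2F transcription factors, and heart muscle cells of the rat switch most of them off in the days after birth as they leave the cell cycle.

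Primary ventricular myocytes of male Sprague-Dawley rats aged 1 to 2 days received either the siRNA against uc.323 (si-uc.323) or a scrambled siRNA (si-scramble), each at 50 nmol/L for 3 h after 36 h of culture. uc.323 is a transcribed ultraconserved region, a non-coding RNA from a stretch of genome that several mammals share unchanged. Both groups then stayed without serum for 21 h and were harvested at 24 h, with 3 samples and 3 arrays per group. Fibroblasts had been reduced by preplating for 1 h, and the medium of both groups held 1% 5-bromodeoxyuridine, a thymidine analogue that dividing cells build into DNA and that is used to hold back non-myocytes. The labels call the samples independent experiments without naming litters, so p-values measure only the spread between these samples. The siRNA sequence given in the labels, which do not name its strand, is printed 5′ to 3′ without its dTdT overhang, as the reagent that separates the groups:
si-uc.323: gguaaguaauuucagcaau

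Slides were inferred from the scan identifiers alone. By these, slide 1 held the 3 si-scramble arrays together with si-uc.323 replicate 1, and slide 2 held si-uc.323 replicates 2 and 3. Slide and group were thus partly confounded, as slide 2 held no si-scramble array. Of 30367 probes, 72.4%, 78.2% and 86.5% were well above background on si-uc.323 replicates 1, 2 and 3, against 71.8% to 73.9% on the si-scramble arrays. Signals are given below as relative intensity, the percent of the 75th percentile of the array's signals. They can be compared between arrays for 1 gene and not between genes. No probe was matched to uc.323, so its knockdown was not checked.

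Replication and repair genes were higher with si-uc.323 than with si-scramble. The log2 fold change was positive for 48 of the 51 genes tested, with a median of 0.48, against a median of 0.04 over all features. With an adjusted p below 0.05 as the threshold (limma, Benjamini-Hochberg adjustment across all features), 13 of the 51 rose, which is 25.5%, against a background of 3.18% of all features called higher. None fell, against a background of 2.45% called lower. At an unadjusted p under 0.05 in limma, 0 of the 51 were lower and 35 were higher, against 2376 and 3199 of all 19920 features. In 35 genes all 3 si-uc.323 arrays lay above all 3 si-scramble arrays, which is 68.6%, against 18.6% of all features, and in none did they all lie below, against 16.5%. These counts hold Cdc7, Pola1 and Pole2 where they apply, which were kept through the si-uc.323 arrays alone, where they read higher. With only probes well above background on all 6 arrays, 48 listed genes were tested and 45 were positive. Of these, 33 were higher at an unadjusted p under 0.05 in limma. By adjusted p 14 were called higher, against 674 of 18892 features. The 13 called genes were Dbf4, Mcm10, Ccne2, Cdc6, Ung, Orc1, Mcm6, Rad54l, Prim1, Gins1, Pole, Tk1 and Rfc2. The increases were between 1.47-fold for Prim1 and 2.30-fold for Mcm10. In RNA from whole cultures, more cells in S phase and more RNA of these genes per cell cannot be told apart.

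**Figure D1:**
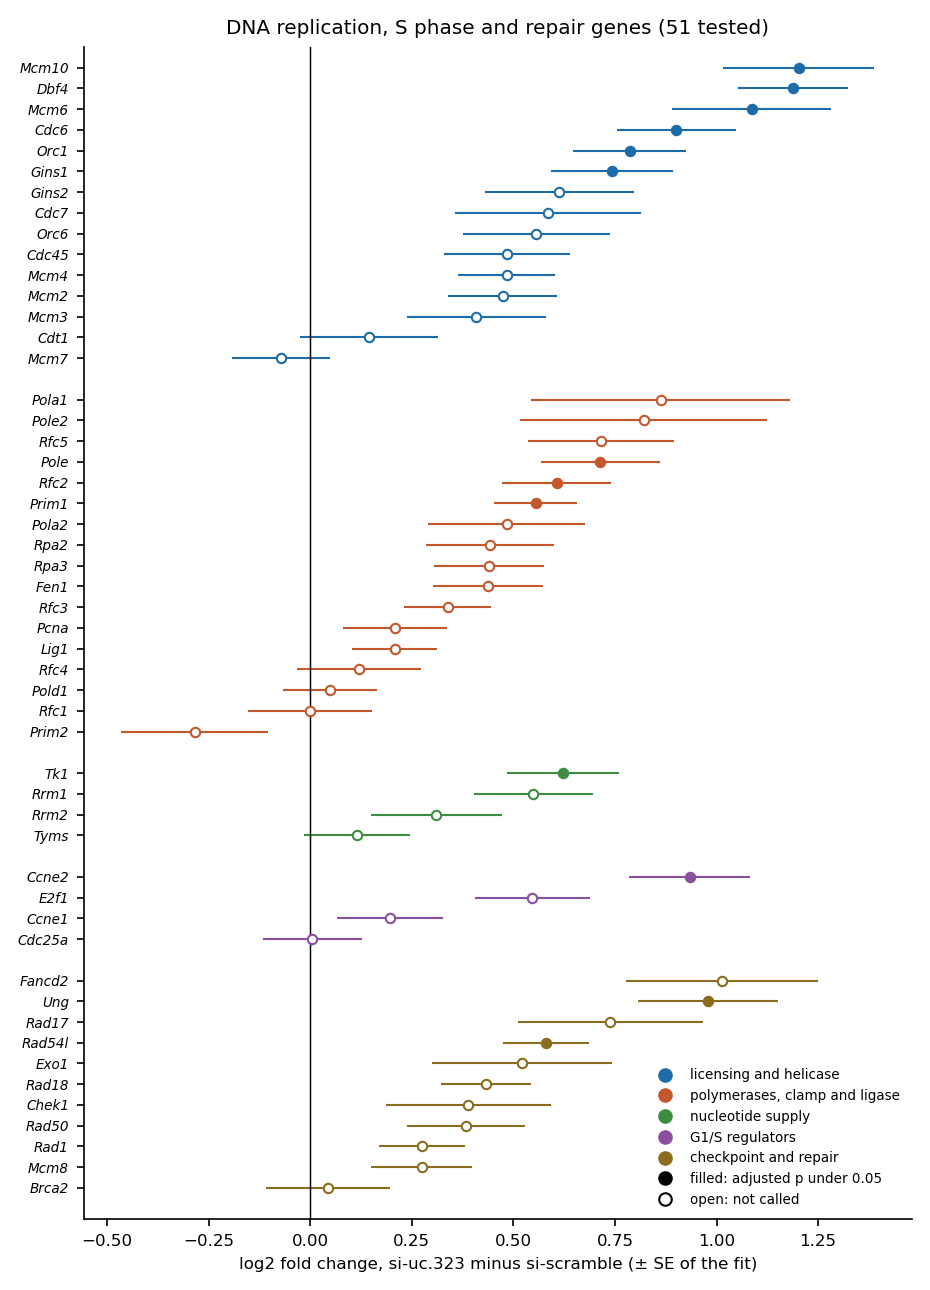
Log2 fold change of each of the 51 tested genes, si-uc.323 minus si-scramble, by role, with the standard error of the fit (n = 3 and 3 arrays). Filled points are the 13 called genes, all to the right of 0, and only Mcm7, Prim2 and Rfc1 lie at or left of 0.

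The rise was present on each si-uc.323 array. The median of the 51 genes, set against the si-scramble mean, was 0.51, 0.37 and 0.58 (log2) on si-uc.323 replicates 1, 2 and 3, while the si-scramble arrays themselves lay at 0.03, -0.04 and 0.02. Replicate 1, which shared its slide with the control arrays, thus lay between the other si-uc.323 arrays. For the whole set of features, si-uc.323 replicate 1 gave a median of -0.04, replicate 2 of 0.03 and replicate 3 of 0.15. Single calls were less stable than the medians. None of the 51 passed on the 4 arrays of slide 1 alone or with the slide as a block, fits that rest on si-uc.323 replicate 1, assume that it varies like the other arrays, and called 0 features and 8 features (3 higher, 5 lower) in all. In each of these fits 48 of the 51 were positive, with a median log2 fold change of 0.51, against -0.04 over all features. None passed without si-scramble replicate 1, 2 or 3 either, when 0, 18 (6 higher, 12 lower) and 0 of all 19920 features were called. Without si-uc.323 replicates 1, 2 and 3, 7, 23 and 3 of the 51 passed, and 595, 1797 and 210 of all features were called higher.

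**Figure D2:**
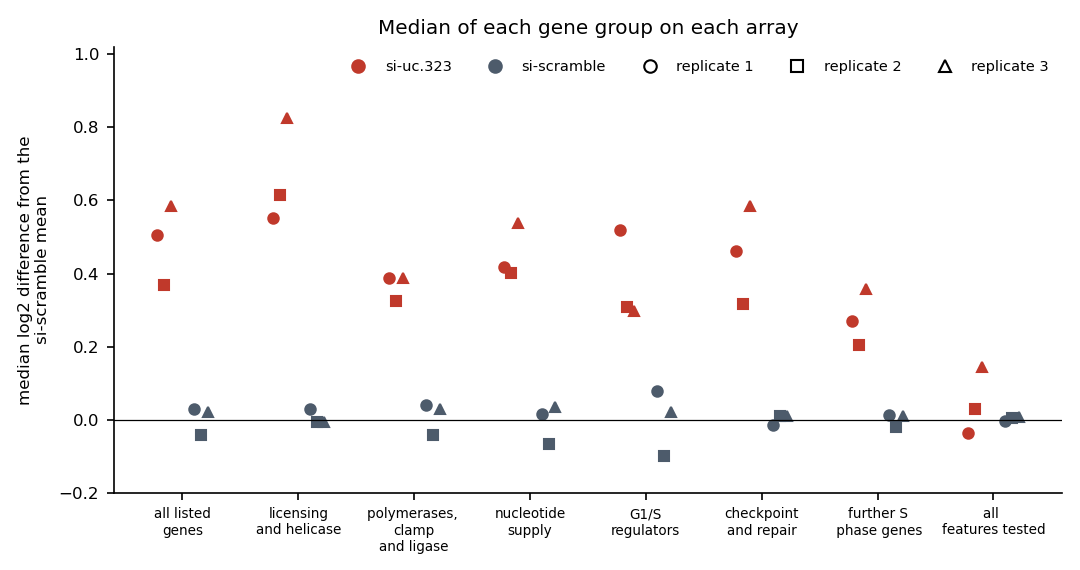
Median log2 difference from the si-scramble mean of each gene group on each array, with si-uc.323 arrays in red and si-scramble arrays in grey and a symbol for each replicate. In the listed groups all si-uc.323 medians lie above all si-scramble medians, with licensing and helicase genes reaching 0.82 on si-uc.323 replicate 3.

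The promoters of these genes are shown because E2F factors are known to act on genes of this class. Promoter sequence from 250 bases before to 50 after the gene start (RefSeq, assembly GRCr8) was matched for 48 of the 56 genes. An E2F site was searched on both strands as TTTCCCGC, TTTGGCGC, TTTCGCGC or TTTGCCGC, and neighbouring matches may overlap. It was found in 20 of the 48 promoters, or 41.7%, against 2.14% of all 33469 promoters of the same length, which were not limited to genes tested here. The listed genes are of a class known as E2F targets, so this share describes the class and not the knockdown. The CCAAT box, the site of the factor NF-Y, was in 27 of the 48, or 56.2%, against 37.5% of all promoters. The element TTTGAA was in 5 of the 48, or 10.4%, against 18.3% of all promoters. Of the 10 called genes with a promoter, 4 held an E2F site. These are Ung at chr12:48153996-48154295 (minus strand), Mcm6 at chr13:42404303-42404602 (minus), Gins1 at chr3:160184670-160184969 (plus) and Pole at chr12:52053613-52053912 (minus). They are printed 5′ to 3′ on the gene's strand, with the E2F letters in capitals:
Ung: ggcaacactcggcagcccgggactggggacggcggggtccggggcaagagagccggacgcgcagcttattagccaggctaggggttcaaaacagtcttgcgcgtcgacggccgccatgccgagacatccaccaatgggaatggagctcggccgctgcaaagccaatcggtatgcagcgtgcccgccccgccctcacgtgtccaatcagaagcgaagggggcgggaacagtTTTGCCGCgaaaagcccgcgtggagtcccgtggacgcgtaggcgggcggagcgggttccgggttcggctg
Mcm6: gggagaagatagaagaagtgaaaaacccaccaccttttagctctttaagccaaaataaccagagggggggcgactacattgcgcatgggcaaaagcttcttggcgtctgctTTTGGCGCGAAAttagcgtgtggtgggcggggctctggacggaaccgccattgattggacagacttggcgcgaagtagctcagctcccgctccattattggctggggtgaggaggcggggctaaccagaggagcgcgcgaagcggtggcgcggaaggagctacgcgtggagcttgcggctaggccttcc
Gins1: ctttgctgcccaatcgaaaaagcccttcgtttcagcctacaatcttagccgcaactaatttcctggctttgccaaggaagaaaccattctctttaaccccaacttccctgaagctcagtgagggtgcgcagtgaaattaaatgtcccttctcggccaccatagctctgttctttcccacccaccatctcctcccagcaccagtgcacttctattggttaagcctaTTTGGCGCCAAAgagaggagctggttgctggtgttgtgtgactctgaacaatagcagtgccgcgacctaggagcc
Pole: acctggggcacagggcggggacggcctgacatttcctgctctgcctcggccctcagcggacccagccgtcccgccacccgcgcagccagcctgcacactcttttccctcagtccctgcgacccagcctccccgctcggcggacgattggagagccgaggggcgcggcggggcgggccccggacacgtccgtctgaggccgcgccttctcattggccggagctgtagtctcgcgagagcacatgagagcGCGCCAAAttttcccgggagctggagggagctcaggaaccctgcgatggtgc

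In Mcm6 and in Gins1 a pair of matches on opposite strands overlapped, at -139 and -135 and at -25 and -21 from the gene start, and Ung and Pole held 1 match each, at -20 and -2. The changes of listed genes with and without a site in this window are given without a test. The median log2 fold change was 0.43 in the 18 tested genes with a site and 0.50 in the 26 without, and 4 and 6 of them rose. Orc1, Cdc6 and Ccne2, all called, had no promoter sequence and are in neither set. The same holds for Mcm4, Rrm2, Rpa3 and E2f1. Mcm7, with a fold change near 1, held 2 matches, and Mcm10 and Dbf4, with the largest changes as reported, held none. With normexp the largest changes were those of Mcm6 (0.75) and Gins1 (0.61), which hold matches. Prim1 (0.53), Rfc2 (0.49) and Tk1, also called with normexp, hold none. Medians with and without a site were not compared with normexp. A match describes letters only, and a missing match says nothing of the factor. The part of E2F factors in the changes was not tested.

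Licensing and helicase genes gave the most calls. Of the 15 tested, 6 rose, 14 were positive and the median log2 fold change was 0.59, the value of Cdc7. Over the 14 genes well above background on all 6 arrays the median was 0.58. In the origin recognition complex, Orc1, its largest subunit, had a relative intensity of 8.14%, 6.55% and 8.78% on si-uc.323 replicates 1, 2 and 3, against 4.66%, 4.59% and 4.27% on si-scramble replicates 1, 2 and 3. The groups did not overlap, and Orc1 rose by 0.79 ± 0.14 on the log2 scale (standard error, 3 and 3 arrays; limma adjusted p = 0.0307). With another background correction, normexp, it read 0.33 and was not called (adjusted p = 0.149). Orc6, the smallest subunit, read 11.5%, 13.8% and 14.6% with si-uc.323, against 9.76%, 10.6% and 7.07% with si-scramble. It did not pass (0.56 ± 0.18, adjusted p = 0.106), though its groups also lay apart.

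Cdc6, the ATPase that joins the origin complex and helps to load the helicase, read 9.26%, 9.50% and 12.6% with si-uc.323, against 5.56%, 5.30% and 5.78% with si-scramble. It rose by 0.90 ± 0.15 (adjusted p = 0.027) and was called in 12 of the 18 other fits. That was the most of any called gene, and the fewest was 5 of 18, for Rad54l. Cdt1, the partner of Cdc6, read 1.58%, 1.40% and 2.02% with si-uc.323, against 1.34%, 1.44% and 1.71% with si-scramble. Here the groups overlapped (0.15 ± 0.17, adjusted p = 0.614), and the sign changed with the background correction and with quantile normalization. Of the loading pair, Cdc6 passed and Cdt1 did not, with an unadjusted 95% interval for Cdt1 of -0.25 to 0.54; the difference between them was not tested.

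The 5 measured subunits of the Mcm2 to Mcm7 ring did not read alike. Mcm6 had a relative intensity of 31.5%, 22.6% and 38.2% on the si-uc.323 arrays, against 15.3%, 13.6% and 13.7% on the si-scramble arrays, and rose by 1.09 ± 0.20 (adjusted p = 0.0319). Mcm4 read 458%, 493% and 405% with si-uc.323, against 339%, 307% and 322% with si-scramble. Its groups lay apart without passing (0.48 ± 0.12, adjusted p = 0.0606). Mcm2 read 33.5%, 35.4% and 42.4% with si-uc.323, against 24.5%, 28.9% and 26.4% with si-scramble (0.47 ± 0.13, adjusted p = 0.080). Mcm3 read 358%, 408% and 263% with si-uc.323, against 259%, 253% and 250.3% with si-scramble (0.41 ± 0.17, adjusted p = 0.174), so that si-uc.323 replicate 3 lay only just above the control arrays. Mcm7 was the exception, at 406%, 383% and 338% with si-uc.323, against 367%, 401% and 416% with si-scramble. Its groups overlapped (-0.07 ± 0.12, adjusted p = 0.73; unadjusted 95% interval -0.36 to 0.21).

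Of the factors that switch the loaded ring on, 3 rose. Dbf4, the regulatory subunit of the Cdc7 kinase, had the lowest adjusted p of the 51 genes. It read 6.80%, 5.69% and 7.55% with si-uc.323, against 2.85%, 2.80% and 3.09% with si-scramble, a log2 fold change of 1.19 ± 0.14 (adjusted p = 0.018). Every si-uc.323 array lay far above the controls. Cdc7, the catalytic subunit, read 2.48%, 1.62% and 2.60% with si-uc.323, against 1.51%, 1.76% and 1.17% with si-scramble. It did not pass (0.59 ± 0.23, adjusted p = 0.151) and cleared background on only 2 of the 3 si-scramble arrays. Mcm10, a helicase activator outside the ring, read 4.31%, 3.52% and 5.61% with si-uc.323, against 1.72%, 2.12% and 1.92% with si-scramble (1.20 ± 0.19, adjusted p = 0.0266). With normexp Mcm10 read 0.32 (adjusted p = 0.145) and Dbf4 0.48 (adjusted p = 0.0547), and neither was called. Its second probe, above background on 1 array in all, had overlapping groups and a difference of -0.27.

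The remaining helicase genes code for the GINS complex and Cdc45, which ride with the ring. Gins1 read 30.2%, 38.1% and 38.3% with si-uc.323, against 20.9%, 24.0% and 18.8% with si-scramble, and rose by 0.74 ± 0.15 (adjusted p = 0.0398). Gins2 read 5.74%, 5.22% and 6.82% with si-uc.323, against 4.90%, 3.46% and 3.37% with si-scramble (0.61 ± 0.18, adjusted p = 0.0901). Cdc45 read 87.0%, 95.6% and 68.8% with si-uc.323, against 64.0%, 53.5% and 61.0% with si-scramble (0.48 ± 0.15, adjusted p = 0.101). In all 3 the groups did not overlap, and only Gins1 passed.

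**Figure D3:**
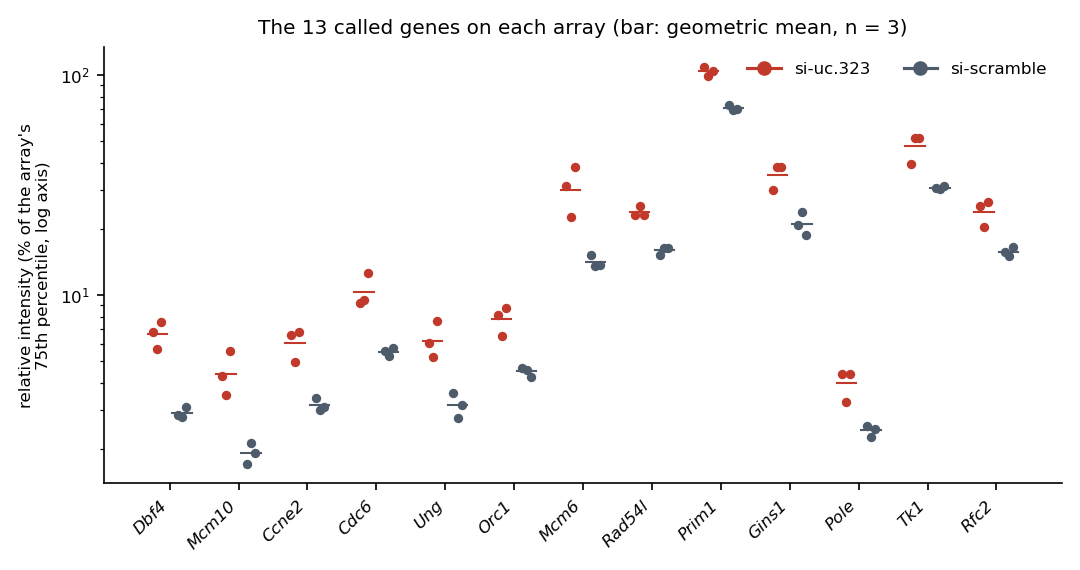
Relative intensity (percent of the 75th percentile of the array, log axis) of the 13 called genes on each array, with si-uc.323 in red to the left of si-scramble in grey, a point for each array and a bar at the geometric mean. The groups lie apart in every gene. The lowest si-uc.323 array is replicate 2 for Dbf4, Mcm10, Ccne2, Ung, Orc1, Mcm6, Prim1, Pole and Rfc2. It is replicate 1 for Cdc6, Rad54l, Gins1 and Tk1.

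Among polymerases, clamp, clamp loader, ligase and single-strand binding proteins, 3 of 17 tested genes rose and none fell (15 positive, median log2 fold change 0.44). Prim1, the catalytic subunit of primase that makes the RNA primers, read 109%, 99.7% and 105% with si-uc.323, against 73.1%, 69.7% and 70.5% with si-scramble. It rose by 0.55 ± 0.10 (adjusted p = 0.0336), with little spread in either group. Prim2, the large subunit of primase, read 125%, 127% and 84.8% with si-uc.323, against 143%, 121% and 139.8% with si-scramble. This was the most negative value of the 51 and did not pass (-0.28 ± 0.18, adjusted p = 0.345), with si-uc.323 replicate 3 as the low array. The partners of primase in the polymerase alpha complex, Pola1 (0.86 ± 0.32, adjusted p = 0.137) and Pola2 (0.48 ± 0.19, adjusted p = 0.16), were positive and did not pass. Pola1 read 3.62%, 2.50% and 4.83% with si-uc.323, against 2.19%, 1.30% and 2.58% with si-scramble, and its groups overlapped.

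Pole, the catalytic subunit of the leading-strand polymerase epsilon, read 4.38%, 3.29% and 4.39% with si-uc.323, against 2.55%, 2.28% and 2.47% with si-scramble. It rose by 0.71 ± 0.15 (adjusted p = 0.0414), but read 0.08 (adjusted p = 0.763) with normexp background correction. Its accessory subunit Pole2 (0.82 ± 0.30, adjusted p = 0.138) had overlapping groups. Pold1, the catalytic subunit of the lagging-strand polymerase delta, read 59.4%, 54.7% and 51.3% with si-uc.323, against 49.4%, 56.1% and 54.3% with si-scramble. It lay close to 0 (0.05 ± 0.12, adjusted p = 0.813; unadjusted 95% interval -0.22 to 0.32).

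Replication factor C, the clamp loader, has 5 subunits, and 1 of them passed. Rfc2 read 25.4%, 20.4% and 26.6% with si-uc.323, against 15.8%, 15.0% and 16.5% with si-scramble (0.61 ± 0.13, adjusted p = 0.0489). Rfc5 (0.72 ± 0.18, adjusted p = 0.0617) and Rfc3 (0.34 ± 0.11, adjusted p = 0.0985) had groups that lay apart without passing. Rfc4 read 42.9%, 51.8% and 59.1% with si-uc.323, against 42.1%, 51.7% and 47.0% with si-scramble (0.12 ± 0.15, adjusted p = 0.645). Rfc1, the large subunit, read 143%, 195% and 139% with si-uc.323, against 155%, 156% and 160.3% with si-scramble (0.00 ± 0.15, adjusted p = 0.998). The groups overlapped for Rfc4 and for this brightest probe of Rfc1, whose other probes gave 0.20 and 0.70.

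Pcna, the sliding clamp and a common marker of S phase, did not pass. It read 274%, 311% and 328% with si-uc.323, against 272%, 283% and 236% with si-scramble, and its groups overlapped (0.21 ± 0.13, adjusted p = 0.326; unadjusted 95% interval -0.09 to 0.51). Fen1, the nuclease that trims flaps on the lagging strand, read 199%, 207% and 164% with si-uc.323, against 148%, 127% and 146% with si-scramble (0.44 ± 0.14, adjusted p = 0.0963). Lig1, the ligase that seals the fragments, was less changed (0.21 ± 0.11, adjusted p = 0.244). Of the single-strand binding complex RPA, Rpa2 (0.44 ± 0.16, adjusted p = 0.128) and Rpa3 (0.44 ± 0.14, adjusted p = 0.0951) gave the same value with groups that lay apart, and neither passed.

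Of the 4 genes of nucleotide supply, 1 rose. Tk1, the cytosolic kinase that salvages thymidine and also phosphorylates bromodeoxyuridine, read 39.6%, 51.8% and 52.1% with si-uc.323, against 30.7%, 30.4% and 31.4% with si-scramble (0.62 ± 0.14, adjusted p = 0.0488). Rrm1, the large subunit of ribonucleotide reductase, read 5.99%, 5.17% and 7.03% with si-uc.323, against 4.22%, 3.74% and 4.40% with si-scramble. Its groups lay apart and it did not pass (0.55 ± 0.15, adjusted p = 0.0693). Rrm2, the small subunit that limits the enzyme in S phase, read 625%, 626% and 446% with si-uc.323, against 473%, 417% and 464% with si-scramble, so that si-uc.323 replicate 3 fell among the controls (0.31 ± 0.16, adjusted p = 0.254). Tyms, thymidylate synthase, read 35.9%, 36.2% and 44.4% with si-uc.323, against 33.2%, 38.0% and 35.9% with si-scramble (0.12 ± 0.13, adjusted p = 0.604).

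Of the G1/S regulators, Ccne2 rose and Ccne1 did not pass, though both code for an E-type cyclin that activates Cdk2 at S phase entry. Ccne2 read 6.57%, 4.98% and 6.78% with si-uc.323, against 3.39%, 3.00% and 3.12% with si-scramble (0.93 ± 0.15, adjusted p = 0.0267). Ccne1 read 194%, 183% and 153% with si-uc.323, against 157%, 143% and 161% with si-scramble, with overlapping groups (0.20 ± 0.13, adjusted p = 0.363). With normexp Ccne2 read 0.20 and was not called (adjusted p = 0.399). E2f1, an activating E2F factor, read 95.1%, 74.7% and 87.2% with si-uc.323, against 66.3%, 54.4% and 55.1% with si-scramble, and did not pass (0.55 ± 0.14, adjusted p = 0.0664; 0.0474 with normexp). Cdc25a, the phosphatase that removes the brake on Cdk2, lay at 0 (0.01 ± 0.12, adjusted p = 0.984).

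In checkpoint and repair, 2 of 11 tested genes rose, all 11 were positive and the median log2 fold change was 0.43. Ung, the glycosylase that removes uracil from DNA, read 6.06%, 5.23% and 7.60% with si-uc.323, against 3.59%, 2.77% and 3.17% with si-scramble (0.98 ± 0.17, adjusted p = 0.0305). Rad54l, a motor protein of homologous recombination, read 23.1%, 25.5% and 23.3% with si-uc.323, against 15.3%, 16.4% and 16.3% with si-scramble (0.58 ± 0.11, adjusted p = 0.0333). Both had groups that lay well apart, and with normexp neither was called (Ung 0.39, adjusted p = 0.0969; Rad54l 0.32, adjusted p = 0.0766). Fancd2, of the Fanconi pathway of crosslink repair, lay just outside the threshold at 1.01 ± 0.24 (adjusted p = 0.0533). It read 3.89%, 2.49% and 4.84% with si-uc.323, against 1.65%, 1.91% and 1.81% with si-scramble.

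Other repair genes were positive without passing. Rad18, a ubiquitin ligase that marks Pcna at stalled forks (0.43 ± 0.11, adjusted p = 0.0654), and Rad17, which loads the checkpoint clamp (0.74 ± 0.23, adjusted p = 0.0957), had groups that lay apart. So did Rad1, a subunit of that clamp (0.28 ± 0.11, adjusted p = 0.147), Rad50 of the break-binding complex (0.38 ± 0.15, adjusted p = 0.144), the exonuclease Exo1 (0.52 ± 0.22, adjusted p = 0.18) and the helicase Mcm8 (0.27 ± 0.12, adjusted p = 0.20). Chek1, the checkpoint kinase of stalled forks, read 11.2%, 7.02% and 11.4% with si-uc.323, against 6.79%, 7.42% and 7.94% with si-scramble, with overlap at si-uc.323 replicate 2 (0.39 ± 0.20, adjusted p = 0.255). Brca2, a breast cancer susceptibility gene of homologous recombination, read 101%, 110.3% and 77.0% with si-uc.323, against 91.3%, 93.9% and 91.5% with si-scramble (0.04 ± 0.15, adjusted p = 0.878).

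Larger changes went with dimmer probes. Among listed genes with a mean relative intensity under 10%, 7 of 17 rose and the median log2 fold change was 0.79. Between 10% and 50%, 5 of 14 rose (median 0.57), and above 50%, 1 of 20 rose (median 0.29). All features showed a smaller slope, with medians of 0.12, 0.09 and -0.05 and with 3.36%, 4.47% and 2.15% called higher in the same ranges. On si-uc.323 replicates 1, 2 and 3 the listed genes under 10% had medians of 0.85, 0.44 and 0.96, and those above 50% had 0.30, 0.28 and 0.22. All features under 10% had -0.01, 0.03 and 0.34 on the same arrays, and those above 50% had -0.08, 0.03 and -0.11. Dim probes were thus raised across the array on si-uc.323 replicate 3. With normexp background correction, whose offset pulls dim probes towards 0, 8 listed genes passed, and 6 of the 13 called genes were among them (Cdc6, Mcm6, Gins1, Prim1, Rfc2 and Tk1). The ranges were chosen after the data were seen, and the part of signal level in the changes was not tested.

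**Figure D4:**
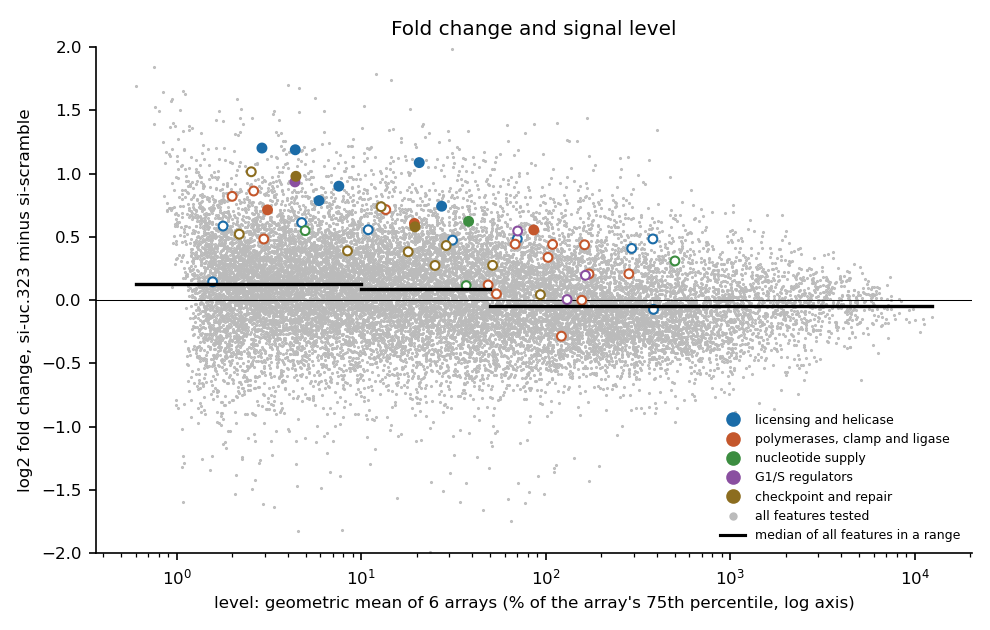
Log2 fold change (si-uc.323 minus si-scramble) against the geometric mean signal of the 6 arrays (percent of the 75th percentile, log axis) for all features in grey and the 51 listed genes in colour, filled where called. Black lines are the medians of all features under 10%, from 10% to 50% and above 50%, and 21 features beyond ±2 are outside the axis.

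Second probes bear on the same point within a gene. Mcm3, whose brighter probe gave 0.41, had a dimmer probe at 29.9%, 30.6% and 33.9% with si-uc.323, against 18.3%, 20.0% and 18.3% with si-scramble, a difference of 0.74 (adjusted p = 0.0243 with each probe tested in limma on its own). Rrm2, at 0.31 on its brighter probe, had a dimmer probe at 30.4%, 25.1% and 32.3% with si-uc.323, against 16.1%, 14.9% and 14.9% with si-scramble, a difference of 0.93 (adjusted p = 0.0206). Both dimmer probes passed where the brighter one did not. For Mcm4 the dimmer probe gave 0.80 against 0.48, for E2f1 0.56 against 0.55 and for Mcm2 0.40 against 0.47. For Rfc1 the groups did not overlap on the probe at 0.70. With probes averaged, 17 listed genes passed, the 13 and Mcm3, Mcm4, Rrm2 and E2f1.

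A further list of 82 genes of the same pathway, none of them among the 56, gave 57 tested genes, and was also chosen with earlier results known. Of these, 9 rose (15.8%) and none fell, against 3.18% called higher and 2.45% called lower of all features. Positive values were seen in 45, with a median log2 fold change of 0.28, against 10944 of 19920 features and a median of 0.04. At an unadjusted p under 0.05 in limma, 24 were higher and 1 was lower, against 3199 and 2376 of 19920 features. Gmnn, geminin, the inhibitor of Cdt1, read 43.6%, 47.9% and 47.3% with si-uc.323, against 21.2%, 24.8% and 19.7% with si-scramble (1.09 ± 0.13, adjusted p = 0.0188). Skp2, a ubiquitin ligase subunit of G1/S, rose by 1.09 ± 0.17, and Ccna2, the S phase and G2 cyclin A2, by 0.89 ± 0.14. Ccna2 read 238%, 261% and 192% with si-uc.323, against 128%, 121% and 122% with si-scramble. Also higher were Wdhd1, a replisome adaptor (0.89 ± 0.15), the histone chaperones Asf1b (0.85 ± 0.14) and Nasp (0.52 ± 0.12) and the glycosylase Neil3 (0.66 ± 0.11). Orc3 (0.00 ± 0.12), Parp1 (-0.02 ± 0.10) and Tfdp1, the dimer partner of E2F (0.02 ± 0.11), lay at 0.

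Markers of cell types were read beside these genes, and each sum below follows its brightest probes. Of 10 cardiomyocyte markers, none rose and 1 fell, cardiac actin Actc1 (-0.63 ± 0.11, adjusted p = 0.0314), and their summed relative intensity was 23571% to 25694% with si-uc.323, against 27440% to 28543% with si-scramble. Actc1 (means of 4143% with si-uc.323 and 6389% with si-scramble) and Pln (4273% and 5231%) made up most of that difference. Tnnt2, Myh6, Myh7, Myl2 and Actn2 were positive, and the median log2 fold change of the 10 was -0.12. Of 9 fibroblast markers, 1 rose, the matrix protein Postn (0.69 ± 0.12, adjusted p = 0.0312), with sums of 12571% to 15711% with si-uc.323, against 12370% to 13383% with si-scramble. Smooth muscle and mural markers summed to 1521% to 1552% with si-uc.323, against 1394% to 1456% with si-scramble, with 0 of 8 called. Endothelial markers summed to 571% to 871% with si-uc.323, against 1119% to 1255% with si-scramble, with 0 of 7 called. Kdr made up most of that sum (means of 653% with si-uc.323 and 1086% with si-scramble), while the median log2 fold change of the 7 was 0.15. In the leukocyte list 1 of 7 fell (Cx3cr1) and the sums were 1414% to 1846% with si-uc.323, against 1683% to 1699% with si-scramble. Epicardial markers summed to 342% to 419% with si-uc.323, against 474% to 506% with si-scramble (0 of 4 called), and Schwann and neural markers to 162% to 168%, against 142% to 181% (0 of 5 called). Erythroid markers summed to 283% to 371% with si-uc.323, against 332% to 388% with si-scramble, and 1 of 3 fell (Hbb). No marker in these lists was below background on all 6 arrays. The part of cell composition in the replication genes was not tested.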

How the data were processed

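RNA from each of the 6 cultures was read on its own 1-colour Agilent array (design 028282) after Cy3 labelling. Per the submitters' processing notes, the authors used Agilent Feature Extraction (version 11.0.1.1) to read the scans. Per the file headers, the deposited intensity of a spot is linear, with background subtraction and spatial detrending done array by array and no scaling across arrays. The deposited series table holds log2 values with the same median in all 6 columns, and how they were normalized is not given in the sources used here; it served as an alternative only.

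Spots flagged as outliers (322 to 594 of 42877 per array) were left out, and no spot was saturated. The log2 intensity was shifted by each array's 75th percentile (1182 to 1381 intensity units on slide 1, 1718 and 1775 on slide 2), which removes any change shared by all genes, and replicate spots were averaged. A probe was kept if it cleared background on every array of either group, 44 probes lacking a value somewhere were dropped, and the brightest probe stood for a gene. Probes were named by RefSeq accession through a gene table of assembly GRCr8 (18005 of 30367 matched 1 gene, none several). The array design places probes on rn4, and no probe coordinates were used. The comparison used limma 3.58.1 (lmFit, eBayes) under R 4.3.3, with Benjamini-Hochberg adjustment over 19920 features and a threshold of 0.05. Errors are standard errors of the fit. Precision is limited by there being 3 arrays per group.

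The genes and lists were chosen with earlier results of these data known. Named genes were, in each role, up to 6 called members with the lowest adjusted p, the 2 with the highest p, the subunits of each complex and some fixed regulators; other repair genes are also given, so that all are accounted for. Further genes were those called, of which some are not reported here, and Orc3, Parp1 and Tfdp1 were picked after their values were seen. In simulations of this comparison with 19920 features, 200 of them changed, the fit recovered 0% of log2 changes of size 0.5, 59.5% of size 1 and 90% of size 2. False calls numbered 0, 8 and 6. The data had more calls, 634 higher and 488 lower, and Prim1 was called at 0.55 and Nasp at 0.52. The simulated rates therefore cannot be taken as those of the data. Alternatives were normexp on the median spot and background signals (offset 50), quantile and median scaling, the series values, other filters and probe rules, another prior, a block for replicate number or for slide, and each array left out in turn; the fit of slide 1 arrays was added after the data were seen. Figures were drawn with matplotlib 3.10.9.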

Additional observations from a re-analysis of the deposited data

How the results depend on the processing

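The median log2 fold change of the 51 genes and of each role stayed positive under every alternative run. Of the listed genes, 8 were called higher with normexp, 9 with a common median shift, 12 with quantile normalization and 9 with the replicate block (491, 406, 711 and 426 of all 19920 features), and 0 without the background filter (33 higher at an unadjusted p under 0.05 in limma), with the slide block or on slide 1 alone, where 0 of 27493, 3 and 0 of all features were called higher. Leaving out 1 array gave 0 to 23 calls, and no listed gene was called lower in any fit. There were 0 calls whichever si-scramble array was left out, with 27 or 28 higher at an unadjusted p under 0.05 in limma. In either direction, 3388 to 4012 of all 19920 features were under 0.05 in those fits, and 5065 of 27493 without the filter. Of the further genes, 4 were called with the median shift, 0 without the filter, with the slide block or on slide 1 alone (406, 0, 3 and 0 of all features higher), and 0 to 15 when 1 array was left out.

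The median of all features, 0.04 as reported, was -0.09 with the median shift and -0.07 with normexp. The median of the listed genes was then 0.35 and 0.26, with 43 and 44 genes positive. By role, the median with normexp was 0.38 for licensing, 0.15 for polymerases, 0.22 for nucleotide supply, 0.16 for G1/S regulators and 0.26 for repair, and with the median shift 0.45, 0.31, 0.30, 0.24 and 0.30. Quantile normalization and the series values both gave 0.48 for licensing and 0.33 for repair. The slide block and slide 1 alone gave 0.52 for G1/S regulators and 0.39 for polymerases, and averaging probes gave 0.58 for nucleotide supply. Without 1 array, the medians ranged from 0.29 to 0.53 for repair and from 0.37 to 0.47 for polymerases. The causes were not tested.

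Genes that changed sign had not passed. Cdt1 read -0.13 (normexp), -0.0090 (quantile) and -0.0067 (series values). Mcm7 read 0.042 with the slide block and on slide 1 alone, and 0.0016 without si-uc.323 replicate 3. Cdc7 (-0.045), Pole2 (-0.0075) and Exo1 (-0.047) turned with normexp. Pold1 read -0.0077 (quantile), -0.0079 (series values), -0.084 (median shift) and between -0.0065 and 0.100 with 1 array left out. Rfc1 read 0.30 with probes averaged and between -0.156 and 0.086 with 1 array left out. Rfc4 read -0.013 (median shift) and -0.12 (slide block and slide 1 alone), and Tyms -0.018 (median shift). Cdc25a read -0.0016 (quantile), -0.0026 (series values), -0.13 (median shift) and between -0.065 and 0.068 with 1 array left out. Brca2 read -0.089 (median shift) and between -0.064 and 0.195 with 1 array left out.

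Deviations of same-numbered samples correlated at 0.205, 0.39 and -0.116, so the numbers were not taken to pair the samples; with the replicate block 8 of the 13 genes stayed called and Pola1 was added. Probes near background, such as Cdc7, Pole2 and Pola1, limit what can be called.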
